A study of Mus musculus with 2 samples.

Results

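Chaperones are the proteins that help other proteins reach and keep their folded shape, and the genes described here are the chaperones and close helpers of the cytosol and of mitochondria. They were picked by symbol: the Hsp90a, Hspa, Hspb, Hspd, Hspe, Hsph, Dnaja, Dnajb, Cct, Pfdn and Bag families together with Tcp1, Stip1 and Trap1, each with a protein-coding transcript, and without the endoplasmic reticulum genes Hspa5, Hspa13 and Dnajb11. The rule gave 62 of the 45578 mouse genes in the table. It used names and no measured value. A few of the genes it took act elsewhere: Dnajb9, Dnajb12 and Dnajb14 are J proteins of the endoplasmic reticulum, and Hspb11 is a subunit of the intraflagellar transport machinery.

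The study measured active translation in whole mouse brain by RiboLace, in which beads bearing a puromycin analogue pull down ribosomes and the RNA fragments those ribosomes protect are sequenced. There was 1 group with 2 biological replicates, both from control animals at postnatal day 5. Both carried 1 intact copy of mouse Smn and the human SMN2 transgene (Smn+/-; SMN2tg/0) on a congenic FVB background, the heterozygous genotype of the Taiwanese spinal muscular atrophy strain. No wild-type animal, diseased animal, treatment or total RNA library is compared here, so the values are levels of ribosome footprints in this genotype and not changes between conditions. A footprint level joins the amount of an mRNA with how often it is translated, and in whole brain fewer cells of a type and less RNA per cell cannot be told apart.

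Folding in the cytosol runs as a relay. Hsp70 binds unfolded stretches of protein that J proteins bring to it, Hsp110 and Bag proteins make it let go of its nucleotide, Stip1 (also called Hop) bridges it to Hsp90, and prefoldin passes new actin and tubulin to the barrel-shaped CCT complex. Mitochondria hold a set of their own, with the Hsp70 Hspa9, the J protein Dnaja3, the Hsp90 Trap1 and the chaperonin Hspd1 with its lid Hspe1. In developing brain the cytosolic set serves, among others, the heavy output of tubulin and actin that growing neurites need.

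Gene totals were 343552 footprints in replicate 1 and 120282 in replicate 2, a 2.86-fold difference in depth. Markers of neurons held 2500 and 894 of these counts, those of astrocytes and radial glia 918 and 314, of the oligodendrocyte lineage 154 and 50, of microglia 51 and 13, of endothelium 33 and 15, and of blood 694 and 229, while liver, muscle and pancreas markers (Alb, Ckm, Ins2) were at 0 in both. The label brain was thus met by its markers. A single count was worth 2.71 CPM (a count divided by the scaled library size in 1e6 counts) in replicate 1 and 8.93 in replicate 2 after scaling by trimmed mean of M values (TMM).

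The promoters of 4 of these genes carried the heat shock element in the form searched, the sequence through which heat shock factors bind chaperone genes. The form was 3 alternating GAA and TTC units, each separated by 2 bases, starting with either unit and thus read on both strands, in windows from 250 bases before to 50 after a RefSeq start (GRCm38.p6, a patch release of the GRCm38 assembly named in the submitters' processing notes). Of the 62 genes, 54 matched an entry, and 6 of their 72 windows held a match, beside 198 of 32851 windows of all genes (0.603%). These 6 windows are not separate sites, since Dnajb6 and Hsph1 each had overlapping windows that held the same match. The matching genes were Hspd1, Hspe1, Dnajb6 and Hsph1, and their sites are shown because footprints of these 4 are described below. Capitals mark the matched bases. The Hspd1 and Hspe1 windows overlap, since the starts used for these neighbours lie 216 bases apart on opposite strands, and share 1 stretch of 2 overlapping matches.
Hspd1 and Hspe1: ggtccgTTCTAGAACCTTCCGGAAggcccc
Dnajb6: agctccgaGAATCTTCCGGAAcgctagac
Hsph1: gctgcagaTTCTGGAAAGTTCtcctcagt
The Hspd1 and Hspe1 stretch is chr1:55088053-55088082 on the plus strand, with its capitals 127 bases before the Hspd1 start used and 72 bases before the Hspe1 start. The annotated Hspd1 gene reaches to 55088243, so from that end the stretch lies inside it. The Dnajb6 stretch is chr5:29735844-29735872 on the plus strand, 34 bases before the first of its starts. That of Hsph1 is chr5:149636280-149636308 on the minus strand, and its capitals begin at base 16 after 1 of its starts and base 37 after another. A match describes letters and not binding, and a window without one says nothing of the factor. No entry was matched for Bag4, Cct4, Hsp90aa1, Hsp90ab1, Hspa8, Hspa9, Hspb2 and Pfdn1.

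The 62 genes together took 3195 footprints in replicate 1 and 1081 in replicate 2. Out of all gene counts this made 0.930% in replicate 1, with a Wilson interval (95%) from 0.898 to 0.963, and 0.899% in replicate 2 (0.847 to 0.954), on average 0.914% ± 0.0221 (SD, n = 2). The replicates therefore gave the same share within counting error. Intervals here and below cover counting error only, since PCR copies were not marked by molecular identifiers.

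Of the 62 genes, 34 reached a mean of 10 counts, and levels below are given for these unless said otherwise. Of the 28 below that minimum, 21 had at least 1 count and 7 were at 0 in both libraries. Depth decided part of this: 40 genes had 10 or more counts in replicate 1 and 26 in replicate 2. Just inside the minimum stood Dnaja3 with 13 and 9 counts, and just outside it Bag4 with 17 and 1, Bag5 with 14 and 4, and Pfdn4 with 13 and 5.

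Footprint density, the unit used to compare genes, is CPM per kilobase of coding sequence of the gene's most counted coding transcript. By this measure 24 of the 34 genes stood above the median of the 4392 coding genes with enough counts (60.8), and the median of the 34 was 122. None was among the 100 densest coding genes and 4 were among the first 500. In the order of the 34, 28 of 33 neighbouring pairs had replicate ranges that overlapped, so most adjacent places cannot be told apart.

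How the authors counted a fragment that matches several isoforms is not given in the sources used here, and it sets the scale of these densities. Over all genes, 26 pairs of coding isoforms had the same coding length, transcript lengths within 10 bases and at least 40 counts each, and 1 pair (3.85%) had equal counts in replicate 1. The squared difference divided by the sum averaged 0.312, where random division of fragments would give about 1. Counting each fragment for both isoforms would give 0 for isoforms of the same sequence. The value lay between these, but the pairs were matched on lengths and not on sequence, so which scheme was used was not settled. The density of the single transcript is therefore the value given, and the density of all isoforms summed over the same coding length stands beside the main ratios and orders. If a fragment was counted for every isoform it matches, the summed density holds that fragment more than once. The 62 genes listed 264 transcripts, from 1 for each of 22 genes to 16 for Bag6, and 10 of the 34 genes with enough counts listed 1 transcript only, so that both densities are equal there.

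**Figure D1:**
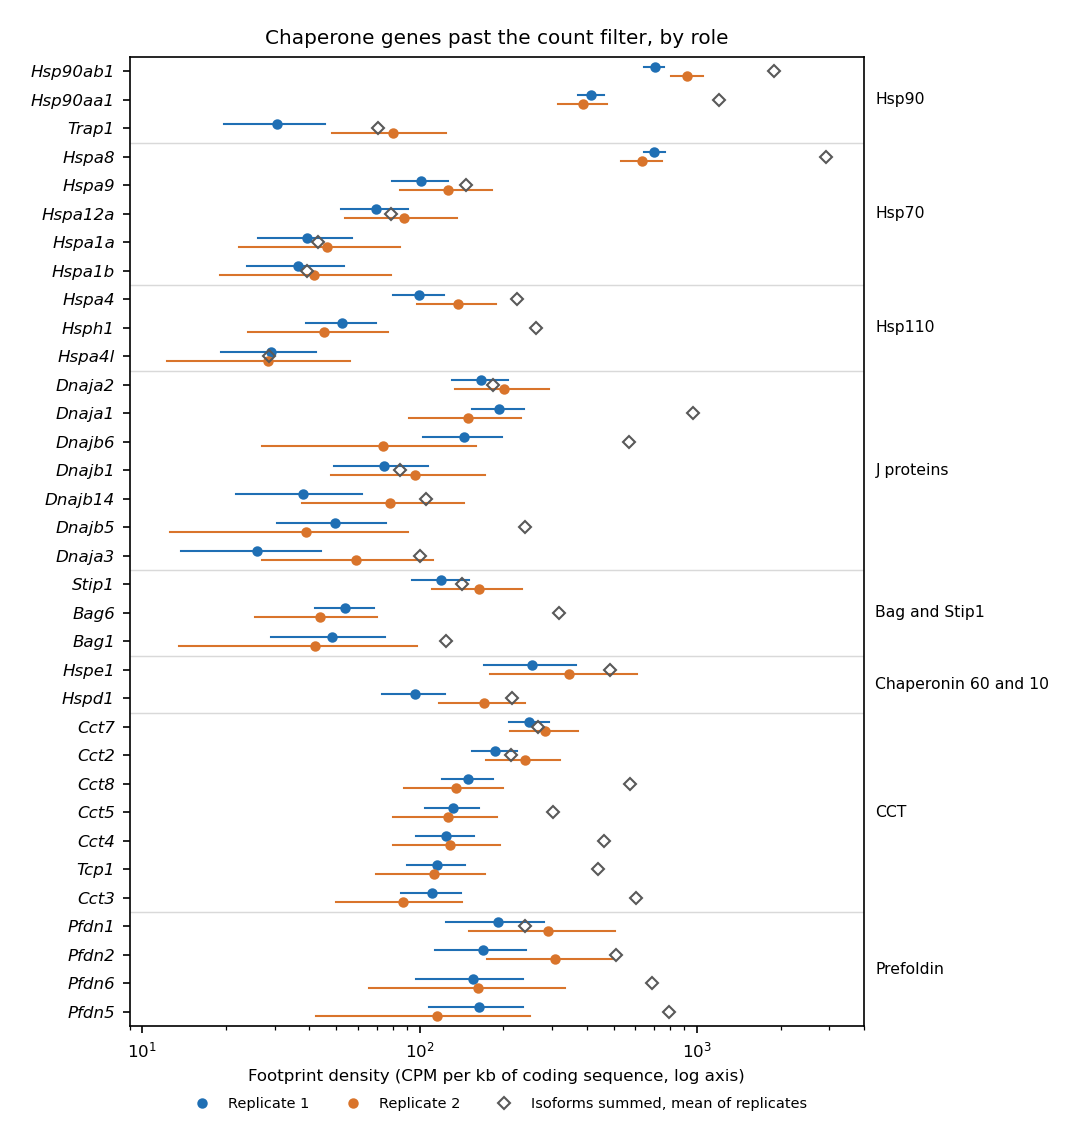
Footprint density on a log axis (CPM per kb of coding sequence) of the 34 genes averaging 10 or more counts, grouped by role. Filled points are replicates with exact Poisson 95% intervals, and open diamonds the mean density with all isoforms summed. Hsp90ab1, Hspa8 and Hsp90aa1 lie to the right of every other gene in both replicates by either density, and the diamonds part from the points in genes with many isoforms.

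Hsp90ab1, Hspa8 and Hsp90aa1 led the set. Together they held 44.0% of the chaperone counts in replicate 1 (42.3 to 45.7) and 42.4% in replicate 2 (39.5 to 45.3). Hsp90ab1 (ENSMUSG00000023944, chr17:45567778-45573261), the constitutive cytosolic Hsp90 that matures kinases and steroid receptors, had 564 and 224 counts, a density of 703 in replicate 1 and 919.7 in replicate 2 (mean 811 ± 153, SD, n = 2), and rank 108 of the 4392 coding genes. Hsp90aa1 (ENSMUSG00000021270, chr12:110691036-110696395), its paralog with stress-inducible expression, had 338 and 96 counts and a density of 416 and 389 (403 ± 18.9), rank 324. Hsp90ab1 was the higher of the pair in both libraries.

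The density of Hsp90ab1 over that of Hsp90aa1 was 1.69 in replicate 1 (exact conditional 95% interval 1.47 to 1.94) and 2.36 in replicate 2 (1.85 to 3.03), a geometric mean of 2.00. Both genes listed 8 transcripts, and with isoforms summed the ratio was 1.57. Either way the interval or value lay above 1 in each library, while its size moved with the counting. Trap1, the mitochondrial Hsp90, was far lower, with 24 and 19 counts and a density of 30.7 and 79.99 (55.3 ± 34.9). Hsp90aa1 exceeded Trap1 by 13.6-fold in replicate 1 (8.96 to 21.5) and 4.87-fold in replicate 2 (2.95 to 8.43), and by 30.9-fold and 11.3-fold with isoforms summed.

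Hspa8 (ENSMUSG00000015656, chr9:40801276-40805202), the constitutive cytosolic Hsp70 known as Hsc70, which also strips clathrin from vesicles, was the second densest gene with 503 and 138 counts and densities of 702 and 635 (669 ± 47.7), rank 152. Its place beside Hsp90ab1 depended on library and counting. In replicate 1 the ratio of Hspa8 to Hsp90ab1 was 0.999 (0.884 to 1.13) and in replicate 2 it was 0.690 (0.554 to 0.857), but with isoforms summed it was 1.77 and 1.35. Which of these genes carries more ribosomes per coding length was thus not settled.

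The other Hsp70 genes were several-fold lower. Hspa9 (mortalin), the mitochondrial Hsp70 that pulls proteins through the inner membrane, had 76 and 29 counts and a density of 101 and 127 (114 ± 18.4). Hspa8 exceeded it by 6.96-fold in replicate 1 (5.46 to 8.97) and 5.00-fold in replicate 2 (3.33 to 7.74), a geometric mean of 5.90. Hspa8 listed 9 transcripts and Hspa9 listed 4, and with isoforms summed the ratio was 19.9. Its direction held under both countings and its size did not. Hspa12a, a distant Hsp70 relative, had 52 and 20 counts and a density of 69.5 and 88.1.

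Hspa1a and Hspa1b, the inducible Hsp70 genes that are near silent in unstressed tissue and rise on heat shock, were low but present. Hspa1a had 28 and 10 counts and a density of 39.4 and 46.4 (42.9 ± 4.93). Hspa1b had 26 and 9 counts and a density of 36.5 and 41.7 (39.1 ± 3.63). Their values stood within counting error of each other, and since these copies are nearly identical in coding sequence their counts can hold the same fragments or parts of 1 pool. Hspa8 exceeded Hspa1a by 17.8-fold in replicate 1 (12.2 to 27.1) and by 13.7-fold in replicate 2 (7.23 to 29.2). With isoforms summed the ratios were 77.4 and 59.9, since the inducible gene listed 1 transcript. The inducible genes sit side by side with the testis gene Hspa1l on chromosome 17, Hspa1b at chr17:34956429-34959238, Hspa1a at chr17:34969359-34972156 and Hspa1l at chr17:34972703-34979228. Hspa1l had 5 and 2 counts. Below the minimum were also Hspa2 (8 and 4 counts), an Hsp70 best known from the male germ line, Hspa14 (6 and 6), which binds ribosomes, and Hspa12b (7 and 2), an endothelial relative of Hspa12a.

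The Hsp110 proteins are large relatives of Hsp70 that exchange its nucleotide. Hspa4 had 93 and 39 counts and a density of 99.7 and 138 (119 ± 26.9), Hsph1 had 50 and 13 counts and 52.6 and 45.0 (48.8 ± 5.33), and Hspa4l had 27 and 8 counts and 29.1 and 28.4 (28.7 ± 0.486). Hspa4 was above Hspa4l by 3.43-fold in replicate 1 (2.21 to 5.48) and 4.85-fold in replicate 2 (2.24 to 12.02). Hspa4 was above Hsph1 by 1.90-fold (1.33 to 2.73) and 3.06-fold (1.60 to 6.24) on single transcripts, but Hsph1, whose promoter site is printed above, listed 11 transcripts and Hspa4 listed 3, and with isoforms summed the ratio fell to 0.849. Only the order of Hspa4 over Hspa4l, of the pairs compared in this family, therefore held under both countings.

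Among J proteins, which hand clients to Hsp70 and trigger its ATP hydrolysis, the class A genes Dnaja2 and Dnaja1 were densest on single transcripts. Dnaja2 had 76 and 28 counts and a density of 166 and 202 (184 ± 25.2), and Dnaja1 had 85 and 20 counts and 193 and 149.6 (171 ± 30.6). Their ratio, Dnaja1 over Dnaja2, was 1.16 in replicate 1 (0.842 to 1.60) and 0.741 in replicate 2 (0.396 to 1.36), so no difference was resolved on single transcripts. With isoforms summed Dnaja1, which listed 10 transcripts against 1 for Dnaja2, stood 5.26-fold higher. Hspa8 was denser than Dnaja1 by 3.64-fold (2.89 to 4.64) and 4.24-fold (2.64 to 7.17), and by 3.02-fold with isoforms summed, a ratio that moved little.

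Class B genes were lower on single transcripts. Dnajb6, a strong suppressor of polyglutamine aggregation and the gene with the second promoter site above, had 39 and 6 counts and a density of 145 and 73.5 (109 ± 50.5). Dnajb1, the partner of Hspa8 in pulling apart aggregates, had 28 and 11 counts and 74.2 and 96.0 (85.1 ± 15.4). Dnajb14 (16 and 10 counts) and Dnajb5 (23 and 5) also passed the minimum, as did the mitochondrial Dnaja3 (13 and 9 counts, density 25.9 and 59.0). The 23 and 5 counts of Dnajb5 lay on a non-coding transcript, and its coding transcript had 21 and 5. Dnajb6 listed 12 transcripts and, with isoforms summed, reached 571 ± 218, above the 184 of Dnaja2, so its place among the J genes moved with the counting. Likewise Dnajb5 stood at 44.2 on its coding transcript and at 239 with isoforms summed, below and above the 85.1 of Dnajb1. The remaining J genes had few counts: Dnajb4 11 and 1, Dnajb9 10 and 5, Dnajb2 10 and 0, Dnajb12 7 and 8, Dnaja4 3 and 2. Dnajb3 and Dnajb13 had 1 count each in replicate 1 and none in replicate 2, and Dnajb7 and Dnajb8 were at 0 in both libraries.

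Stip1, the bridge between Hsp70 and Hsp90, had 72 and 30 counts and a density of 119.6 and 164 (142 ± 31.5). Hsp90ab1 exceeded it by 5.88-fold in replicate 1 (4.59 to 7.62) and 5.60-fold in replicate 2 (3.82 to 8.50). With isoforms summed that ratio was 13.4, since Stip1 listed 1 transcript. Bag6, which guards membrane proteins awaiting insertion, had 69 and 17 counts and a density of 54.0 and 43.8 (48.9 ± 7.18), and Bag1, a nucleotide exchange factor, had 19 and 5 counts and 48.2 and 41.8 (45.0 ± 4.53). Bag6 listed 16 transcripts and stood at 319 ± 4.36 with isoforms summed, above the 142 of Stip1, so this order also moved with the counting. Bag3, the Bag protein tied to selective autophagy, had 5 and 4 counts and Bag2 had 5 and 0.

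The CCT complex, also called TRiC, is a double ring in which each ring holds 1 copy of every subunit. Of its subunits 7 were measured here, since Cct6a had no protein-coding transcript in the table and so was not a member. On single transcripts Cct7 was densest with 150 and 52 counts and 249 and 284 (266 ± 25.0), and Cct2 came next with 111 and 43 counts and 187 and 239 (213 ± 36.6). Cct8 had 91 and 25 counts and 149.7 and 136 (143 ± 10.03).

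The remaining subunits lay close together. Cct5 had 79 and 23 counts and a density of 132 and 126 (129 ± 3.79), and Cct4 had 70 and 22 counts and 124 and 128 (126 ± 3.12). Tcp1, the founding subunit, had 71 and 21 counts on its coding transcript and 115 and 112 (114 ± 2.07), and Cct3 had 67 and 16 counts on its coding transcript and 111 and 87.2 (99.0 ± 16.7). The most counted transcripts of Tcp1 and Cct3 were models with a retained intron (78 and 16 counts, 63 and 20 counts), which have no coding length.

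From Cct7 to Cct3 the spread was 2.69-fold, 2.24-fold in replicate 1 and 3.26-fold in replicate 2. The subunit means had a coefficient of variation of 39.1%, against a median of 7.03% between replicates of a subunit. Of 21 pairs of subunits, 9 had intervals that left out a ratio of 1 in both libraries, each of them Cct7 or Cct2 over another subunit. Cct7 and Cct2 each listed 1 transcript, while the others listed 5 to 10, and with isoforms summed none of these 9 kept its direction: Cct3 was then highest at 605 ± 8.25 and Cct2 lowest at 213. The order of subunits in this table thus differed between the countings. Summing can raise only genes with several transcripts, so it cannot show why Cct7 and Cct2 were higher on single transcripts, and this was not tested.

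The non-coding models of Cct6a took similar counts. Its most counted model, Cct6a-001, had 100 and 33 counts over 2454 nucleotides, and Cct6a-201 had 95 and 38 over 1599, or 161 and 212 CPM per kb of transcript. No coding density can be given for them. Cct6b, its testis counterpart, and Cct8l1 were at 0 in both libraries, where 3 counts, the limit a count of 0 allows, would be a density of 5.09 and 16.8 for Cct6b.

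Prefoldin is a hexamer that catches nascent actin and tubulin and hands them to CCT, with short subunits that gather few counts. Pfdn1 had 26 and 12 counts and a density of 191 and 290.4 (241 ± 70.3), and Pfdn2 had 29 and 16 counts and 169 and 307 (238 ± 97.8). Pfdn6 had 22 and 7 counts and 155 and 163 (159 ± 5.32), Pfdn5 had 28 and 6 counts and 163 and 115 (139 ± 33.9), and Pfdn4, below the minimum, had 13 and 5 counts and 151 and 191 (171 ± 28.5). The spread was 1.73-fold, and none of 10 pairs had intervals that left out 1 in both libraries, so the subunits were not separated at this depth. With isoforms summed the spread was 3.30-fold, from Pfdn1 with 1 transcript to Pfdn5 with 8. Vbp1, the further subunit under another symbol and not a member, had 21 and 5 counts and a density of 96.3 and 75.5.

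**Figure D2:**
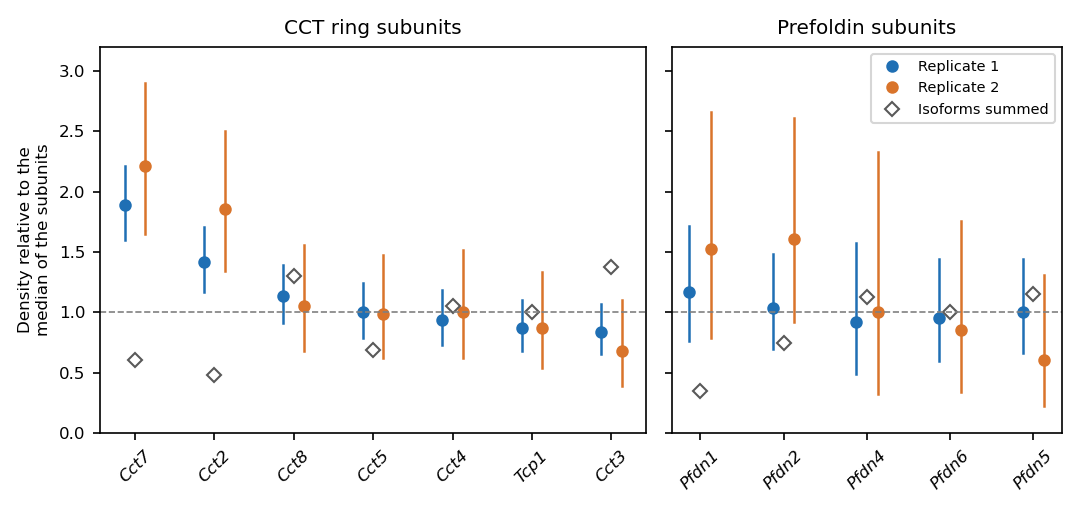
Density of each subunit divided by the median of its complex in the same replicate, for 7 CCT and 5 prefoldin subunits, with exact Poisson 95% intervals, and open diamonds for the mean density with isoforms summed, divided by its own median. Cct7 and Cct2 are the highest CCT points (2.05 and 1.64 times the median on average) yet the lowest diamonds (0.607 and 0.485).

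Hspd1 (Hsp60) and Hspe1 (Hsp10) form the barrel and the lid of the mitochondrial chaperonin, and are the neighbours that share the promoter stretch printed above. Hspe1 had 29 and 12 counts on a short coding sequence of 309 nucleotides, hence a density of 254 and 347 (301 ± 65.4), rank 466 and place 4 among the chaperone genes (place 12 with isoforms summed), and Hspd1 had 61 and 33 counts over 1722 nucleotides and 96.0 and 171 (134 ± 53.1). Hspd1 over Hspe1 was 0.377 in replicate 1 (0.239 to 0.609) and 0.493 in replicate 2 (0.248 to 1.05). The lid was thus denser in replicate 1 beyond counting error and was not separated in replicate 2. The geometric mean was 0.432 and was 0.433 with isoforms summed, but 0.768 per length of the whole transcript. Cct7, a subunit of the cytosolic chaperonin, exceeded Hspd1 by 2.59-fold (1.91 to 3.55) and 1.66-fold (1.05 to 2.65), and by 1.28-fold with isoforms summed.

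Pseudogene copies could blur these counts. Processed pseudogenes named after the genes described here numbered 10, of which 8 had counts, 88 and 27 in all. Hspd1-ps3 alone had 50 and 17 beside 61 and 33 for Hspd1, whereas Hspa9-ps1 had 11 and 2, Cct3-ps1 had 9 and 4 and Hspe1-ps2 had 5 and 1. Whether these are fragments that also match the parent gene was not tested.

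The small heat shock proteins are holdases that keep damaged proteins soluble without ATP, and the genes with Hspb symbols had few counts. Small heat shock genes under other symbols were not members. The 8 Hspb genes together, with the transport subunit Hspb11 among them, had 14 and 4 counts, 0.438% and 0.370% of the chaperone counts. Hspb11 had 4 and 3 counts, Hspb8 4 and 1, Hspb1 (Hsp25 in mouse) 4 and 0, and Hspb2 and Hspb3 1 and 0 each, while Hspb6, Hspb7 and Hspb9 were at 0 in both libraries. Of the 34 genes with enough counts none was an Hspb gene. For Hspb1 in replicate 2 a count of 0 allowed a density up to 42.5, and for Hspb6 in the libraries up to 16.6 and 54.8, so in the shallower library a level just under the coding gene median could have gone unseen.

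Counts on isoforms that differ outside the coding sequence bore on where the fragments lie. Dnaja1-201 and Dnaja1-001 share a coding length of 1194 nucleotides, but the former has 2185 more nucleotides of 3′ untranslated region. They had 85 and 20 counts against 81 and 19, where the added untranslated length at coding density would have brought 152 and 35.7 more. Hsp90aa1-001 and Hsp90aa1-002 share a coding length of 2202 nucleotides, and 429 further untranslated nucleotides went with 338 and 96 counts against 331 and 90, where 64.5 and 17.5 more would match coding density. Both differences lay under those numbers, and these pairs were among the 3 of 10 for which at least 20 more counts would be due in replicate 1. The third, a Dnajb5 pair, had 0 more in replicate 1, where 20.1 would be due. The remaining pairs had too few counts to tell: Pfdn6-002 had 12 more than Pfdn6-004 in replicate 1, where 12.4 would be due, but 2 fewer in replicate 2, and Pfdn5-007 had 6 more than Pfdn5-006 in both libraries, where 15.6 and 2.84 would be due.

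The replicates were compared gene by gene with an exact binomial test on the TMM-scaled libraries, adjusted by Benjamini-Hochberg over the 5436 genes of every kind with enough counts. These p-values compare 2 libraries and no condition. Of the 34 chaperone genes, 1 was called at an adjusted p under 0.05, where 4.14% of all genes tested and 0.956% of coding genes tested were called. It was Hsp90ab1, higher in replicate 2 by 0.39 on the log2 scale (counting SE 0.114, adjusted p = 0.0236 in the exact binomial test). With library totals in place of TMM the difference was 0.18 and the adjusted p 0.640, and over coding genes alone the adjusted p was 0.0810, so the call rested on the scaling and on the genes tested. Over all alternatives run its adjusted p lay between 0.00116, with isoforms summed, and 1, with a preset biological variation in edgeR's exact test. Unadjusted p was under 0.05 for 3 genes, Hsp90ab1, Trap1 and Hspd1, each higher in replicate 2, or 8.82% beside 9.60% of all genes and 5.62% of coding genes. That direction was the more common one elsewhere too. Of genes with such a p, 409 of 522 among all tested and 165 of 247 among coding genes were higher in replicate 2.

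Across the 34 genes log2(CPM + 1) correlated between the libraries with a Pearson r of 0.923 and a Spearman rho of 0.876, beside 0.834 and 0.787 over 4392 coding genes, which share the same libraries and include more genes of low count. The log2 ratio of replicate 2 to replicate 1 ran from -0.97 (Dnajb6) to 1.37 (Trap1), with 21 genes above 0 and 13 below and a median of 0.19. The median was 0.0041 over all genes tested and -0.016 over coding genes. These ratios use the most counted transcript of each gene, which was non-coding for Tcp1, Cct3 and Dnajb5. Cct3 stood at 0.065 on that transcript, while the density of its coding transcript was lower in replicate 2 (111 and 87.2). Library totals in place of TMM lower the log2 ratio of replicate 2 to replicate 1 for all genes nearly alike. The medians were then -0.015 for the 34, -0.20 for all genes tested and -0.22 for coding genes, so the 34 kept their distance from the rest while the sign of their median changed with the scaling.

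**Figure D3:**
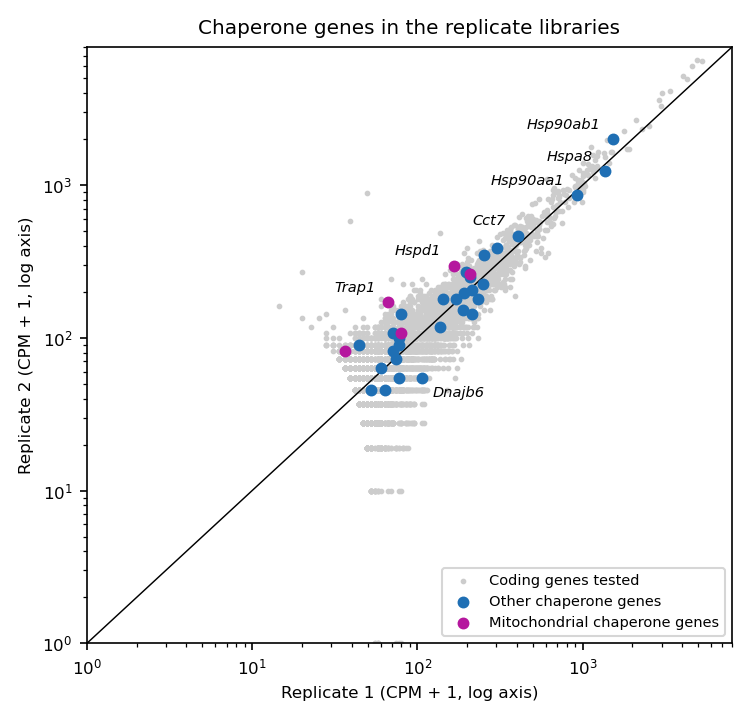
CPM + 1 in replicate 2 against replicate 1, both axes log, for the 34 chaperone genes over the coding genes tested (grey), with the line of equality. The 3 leading genes lie near the line, Dnajb6 lies below it, and Hspd1 and Trap1 lie above it.

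The 5 mitochondrial genes lay on 1 side of this comparison. Hspa9 (log2 ratio 0.33), Hspe1 (0.44), Hspd1 (0.83, SE 0.312, adjusted p = 0.183, exact binomial), Dnaja3 (1.17) and Trap1 (1.37, SE 0.443, adjusted p = 0.0707, exact binomial) were all higher in replicate 2, and none was called. With isoforms summed Hspd1 and Trap1 were among 6 of 41 chaperone genes called, where 7.23% of all genes tested were called, but such sums can hold a fragment more than once, which the test takes for separate fragments. Of the 29 other genes with enough counts, 16 were above 0 and 13 below. The summed counts of the 5 mitochondrial genes were 203 and 102, or 550.1 and 911 CPM (730.5 ± 255, SD, n = 2). Their log2 ratio was 0.73 (counting 95% interval 0.38 to 1.07). For the other 57 chaperone genes summed the log2 ratio was 0.11 (0.0045 to 0.21), and for all coding genes 0.052.

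As a share of chaperone counts, the mitochondrial genes held 6.35% in replicate 1 (5.56 to 7.25) and 9.44% in replicate 2 (7.83 to 11.3), intervals that did not overlap. Leaving out each of the 5 genes in turn, the summed log2 ratio lay between 0.61 and 0.92, and under library totals it was 0.52. Since each of the 5 was above 0, leaving genes out could change the size of the sum but not its sign. Other mitochondrial genes of protein import and quality control differed in direction. Of 8 (Grpel1, Grpel2, Clpb, Clpp, Clpx, Lonp1, Afg3l2, Yme1l1), 5 had a higher CPM in replicate 2 and 3 a lower one (Clpb, Grpel1, Grpel2), with 138 and 60 counts in sum and a log2 ratio of 0.52 (0.081 to 0.96). With the import receptor Tomm70a (93 and 20 counts) added, the sum gave 0.19 (-0.18 to 0.56), an interval that holds 0. The spread between animals of a group cannot be estimated beyond these 2 libraries, so the difference is a description of them. Depth differed between the libraries in the same comparison, and its part was not tested.

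**Figure D4:**
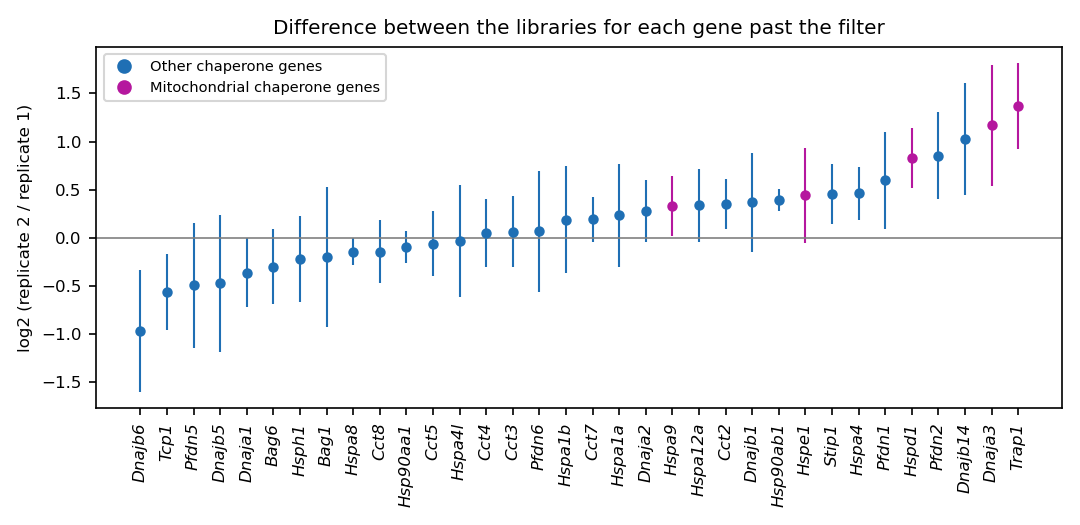
Log2 ratio of replicate 2 to replicate 1 for each of the 34 genes, ordered by value, with bars of 1 counting standard error. Each gene is shown by its most counted transcript, which is non-coding for Tcp1, Cct3 and Dnajb5. The 5 mitochondrial genes (magenta) all stand above 0, from 0.33 for Hspa9 to 1.37 for Trap1, while the others run from -0.97 to 1.03.

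Partner genes outside the set were read from a separate list of cochaperones, tubulin cofactors and proteases. Of 49 listed symbols 48 were in the table and 29 had enough counts, of which none was called (smallest adjusted p = 0.280, exact binomial) and 3 had an unadjusted p under 0.05. The densest were Ptges3 (p23), the Hsp90 cochaperone that closes its cycle, with 68 and 15 counts and a density of 382 and 277, then Btf3 with 272 and 329, part of the nascent chain complex at the ribosome exit. Tbca, a tubulin cofactor, had 298 and 300.4, Dnajc5, the synaptic vesicle J protein, 281 and 284, Vcp, an unfolding ATPase, 218 and 236, and St13 (Hip), which steadies Hsp70, 189 and 208. On single transcripts Ptges3 stood below Hsp90aa1 in both replicates, but no interval was computed for Ptges3 and this order was not tested. Its density lay inside the counting interval of Hsp90aa1 in replicate 1 (373 to 463) and below it in replicate 2 (315 to 475). Hspa5, the endoplasmic reticulum Hsp70 that the rule leaves out, had 122 and 39 counts and a density of 168 and 177. On single transcripts these values were above mitochondrial Hspa9 and below cytosolic Hspa8 in both libraries. In replicate 2 the Hspa5 value lay inside the counting interval of Hspa9 (85.0 to 182), so the order of these genes was not separated there.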

How the data were processed

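Footprint libraries came from 2 brains of 1 group. Trimmomatic 0.36, Bowtie2 2.2.6, SAMtools and GRCm38.p4 are named in the submitters' processing notes; the counting tool, annotation release and treatment of fragments matching several transcripts are not given in the sources used here. Per the labels' protocols, fragments of 25 to 35 nucleotides were selected. The deposited table holds raw whole-number counts per transcript (109463 transcripts) and the lengths of transcript regions.

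For each gene the transcript with the largest count over both libraries stood for the gene. Density used the most counted protein-coding transcript, a choice made after the table was seen because 4 members had a non-coding representative. Libraries were scaled by TMM (edgeR 4.0.16, R 4.3.3). With 1 group no model has a contrast, so genes averaging 10 or more counts were tested by a 2-sided exact binomial test between the libraries (SciPy 1.17.1, Benjamini-Hochberg). Log ratios used a pseudocount of 1 CPM, which understates changes of low genes. Density ratios carry exact conditional (Clopper-Pearson) and densities exact Poisson 95% intervals. Alternatives were library totals, DESeq2 1.42.0 size factors, other isoform rules, other filters, coding genes alone, whole transcript length and an edgeR exact test with a preset biological coefficient of variation of 0.2.

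Genes named with values were the 20 densest members, any called, all CCT and prefoldin members, mitochondrial members, Hspa1a, Hspa1b, the Hspb genes, those beside the count minimum, and the 6 densest partner genes; others named were added after their values were seen. The ring was planned with 8 subunits; Cct6a is not coding in this table, so 7 were used. Members and lists were chosen with earlier results of these data known. Protein sequences were not used here. The replicates are labelled biological. Sequences are RefSeq GRCm38.p6.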

Additional observations from a re-analysis of the deposited data

How the results depend on the processing

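Against 1 chaperone gene of 34 called, beside 4.14% of all genes, the count was 0 with library totals (3.66% of all genes called), with coding genes alone (0.501%), with a minimum average of 50 counts (9.82%), with at least 1 count in each library (1.75%) and with the preset biological coefficient of variation (2.41%). It was 6 of 41 with isoforms summed (7.23%): Dnajb14, Dnajb2, Hsp90ab1, Hspd1, Tcp1 and Trap1. Over these and the other alternatives the adjusted p of Hsp90ab1 ran from 0.00116 to 1. The minimum average of 50 left 12 of the 34 genes, and single libraries left 26 to 40. The median log2 ratio of 0.19 turned to -0.015 with library totals, which shift all genes (their median was then -0.20), and was 0.073 with at least 1 count in each library. The share of counts was 1.28% with isoforms summed and 1.19% of coding counts, and 0.899% to 0.930% in single libraries. The Hsp90ab1 to Hsp90aa1 ratio was 1.57 with isoforms summed and 2.57 per whole transcript length, and 1.69 to 2.36 in single libraries. Hspd1 to Hspe1 was 0.768 per whole transcript length and 0.377 to 0.493 in single libraries. Hspa8 to Hspa9 was 19.9 with isoforms summed and 5.00 to 6.96 in single libraries. The CCT spread stayed between 2.24 and 3.26 in single libraries, and the prefoldin spread was 3.30 with isoforms summed and 3.33 with the longest coding isoform, and 1.27 to 2.67 in single libraries. The cause of these shifts was not tested beyond the construction of each alternative. The alternatives for the mitochondrial sum were added after seeing the data and gave values between 0.52 and 0.92. With all 5 genes above 0, leaving genes out could not change its sign. No paired analysis was possible because the study holds 1 group. Depth limits the 28 genes under the minimum, for which no difference between the libraries was tested.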
